A study of Mus musculus with 108 samples.

Results

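The cytosolic ribosomal protein genes of mouse liver were followed by RNA-seq across diet, strain, time of day and Esrrg genotype. Members were taken by symbol: Rpl or Rps followed by a digit, plus Rplp0, Rplp1, Rplp2 and Rpsa, without symbols containing -ps and without the Rps6k kinases. The rule itself uses no measured value. The rule found 89 of 25125 gene symbols, with 142 transcripts, and the transcript with the highest mean stood for its gene. By role the members were 43 large-subunit proteins, 31 small-subunit proteins, 3 stalk proteins and 12 paralogues or like-named genes. Across the wild-type libraries, 84 of the 89 had a mean level of at least 10 and were tested, among 11287 genes tested in all.

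The samples were 108 male livers in 6 sets of 18, each with 3 replicates at 6 times of day given as Zeitgeber time (ZT, counted from lights on): 2, 6, 10, 14, 18 and 22. The 4 wild-type sets were C57BL/6J (B6) and 129S1/SvImJ (129) mice on Normal Chow or on D12492i, which the labels call a high fat and sucrose diet and which is called the high-fat diet here. Both remaining sets were on D12492i: a 129S1/SvImJ set of genotype Errg-Cre, and a set of genotype Esrrg LKO whose titles give B6 and diet-induced obesity while the strain label reads B6S1/SvImJ. Esrrg encodes the orphan nuclear receptor ERRγ, and the series describes its knockout as specific to hepatocytes. The labels give no ages, do not say what drives Cre, and do not say whether replicates came from separate animals. The p-values therefore measure the spread between these samples, which may be technical in part. The columns of the Esrrg LKO table carry the text ErrgCre in their names, and they were matched to samples by table, time and replicate. Libraries of controls for the knockout were not analysed here, and the 3 tables were normalised separately, so no test of genotype was made.

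The cytosolic ribosome has a large and a small subunit, each built from ribosomal RNA and a set of proteins that are needed in near equal numbers. The stalk proteins Rplp0, Rplp1 and Rplp2 form an arm of the large subunit that recruits the elongation factors. Ribosomal protein mRNAs begin with a cytosine and a run of pyrimidines (the TOP motif), through which mTOR signalling controls their translation in the fed and fasted liver. The mouse genome also holds many processed pseudogene copies of these genes.

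RefSeq promoter sequence (GRCm38.p6, the assembly that matches mm10) was found for 68 of the 89 members. The letters CTTTC, a pyrimidine run of the TOP kind, were searched on the gene's own strand in the 25 bases from 10 before to 15 after the annotated start. They were present in 15 of 68 members (22.06%), against 3.06% of all 27025 promoters. On the opposite strand they were present in 2 members (2.94%), against 2.86% of all promoters. The letters CCGGAAG, an ETS-type motif, were searched on either strand in 300 bases, and 25 members (36.8%) held them against 9.12% of all promoters. The windows below, 15 bases before to 15 after the start, belong to the tested CTTTC holders with the 4 highest and the 4 lowest changes on the high-fat diet in B6. The capitals mark only the first CTTTC of each window.
Rpl18, chr7:45718056-45718085, plus strand: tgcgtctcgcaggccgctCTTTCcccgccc
Rpl7a, chr2:26910792-26910821, plus strand: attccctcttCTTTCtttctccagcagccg
Rplp2, chr7:141447636-141447665, plus strand: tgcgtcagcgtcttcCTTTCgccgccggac
Rps26, chr10:128626492-128626521, minus strand: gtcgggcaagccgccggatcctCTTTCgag
Rpl12, chr2:32961697-32961726, plus strand: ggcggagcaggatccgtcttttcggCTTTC
Rps27, chr3:90213634-90213663, minus strand: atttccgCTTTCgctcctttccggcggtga
Rpl15, chr14:18270972-18271001, minus strand: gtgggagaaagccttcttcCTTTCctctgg
Rpl27a, chr7:109519180-109519209, plus strand: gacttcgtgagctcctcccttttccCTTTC
The same letters thus stood near the annotated start of members whose diet change in B6 ran from 1.93 (Rpl18) down to -0.10 (Rpl27a) on the log2 scale. The first base of the marked letters lay between base 8 (Rps27) and base 26 (Rpl12 and Rpl27a) of the window. Only in Rplp2 was it base 16, the annotated start itself. In Rpl15 and Rps27 base 16 was also a cytosine with pyrimidines after it. Rps27 held a second, unmarked CTTTC that began directly after base 16. In Rpl7a a second, unmarked CTTTC overlapped the marked one. The place of the marked letters therefore does not tell whether a TOP motif lies at the first base of the mRNA. The median diet change in B6 was 0.52 for the 14 tested members with CTTTC and 0.29 for the 49 without. A match is a description of the letters only.

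Every value is the authors' quantile-normalised level, and differences are on the log2(level + 1) scale with their standard error (SE). Column totals were identical within a table, so the depth of each library is unknown. In each set the 14 hepatocyte markers were present. Their summed level was lower in B6 on the high-fat diet, with a median of 534860 against 1448100 on chow. The median of Alb, the albumin gene and 1 of these markers, was 176660 against 863450. Alb stood at 863450 in every B6 chow library and ran from 43705 to 863450 on the high-fat diet. Such values are steps of the distribution that all libraries share, so they give a rank and not the size of a change. Summed levels of 12 Kupffer cell markers ran from 918 to 2441 in B6 on chow and from 1341 to 6806 in B6 on the high-fat diet, and those of 11 stellate cell markers from 2288 to 3035 and from 3132 to 5272. On that diet 6 of 12 Kupffer, 7 of 9 tested stellate, 8 of 13 endothelial and 5 of 14 hepatocyte markers rose in B6, against 27.5% of all genes, and 0, 0, 1 and 4 fell, against 32.7%. The part of cell composition in the results was not tested, and in whole liver fewer cells of a type and less RNA per cell cannot be told apart. A short locus annotated as the microRNA Mir6236 differed widely between libraries: its level ran from 32.8 to 1171 in B6 on chow, from 915 to 91012 in B6 on the high-fat diet, from 27.7 to 61431 in 129 on chow and from 294 to 4030 in 129 on the high-fat diet. The slope of the other genes on transcript GC content also differed, with a median per 10 percentage points of -0.41 in B6 on chow, 0.16 in B6 on the high-fat diet, 0.34 in 129 on chow and 0.10 in 129 on the high-fat diet. The counts of members called in the main comparisons are therefore given also after a GC and length trend was removed and with Mir6236 as a covariate. The 3 libraries with the largest share of genes below a level of 1 were B6 chow ZT14 replicate 3 (14.8%), 129 chow ZT22 replicate 3 (6.95%) and B6 high-fat ZT6 replicate 1 (3.25%).

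The members were abundant and short. Their median mean level was 480 against 99.3 for all genes tested, their median transcript length 717 against 3003 bases, and their median GC content 50.8% against 49.6%. Per kilobase of transcript, Rpl7 had the highest median in B6 on chow (2094) and Rpl36 one of the lowest (18.9), although both encode proteins of the large subunit. The order was not fixed: in B6 on the high-fat diet the median of Rpl36 was 210.3 per kilobase. The 5 members below the mean of 10 were Rpl10l, Rpl32l, Rpl37rt, Rpl39l and Rpl3l, all paralogues or like-named, and the highest level of any of them in a wild-type library was 24.2 (Rpl3l, in B6 on chow). No member was at 0 in every wild-type library.

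**Figure D1:**
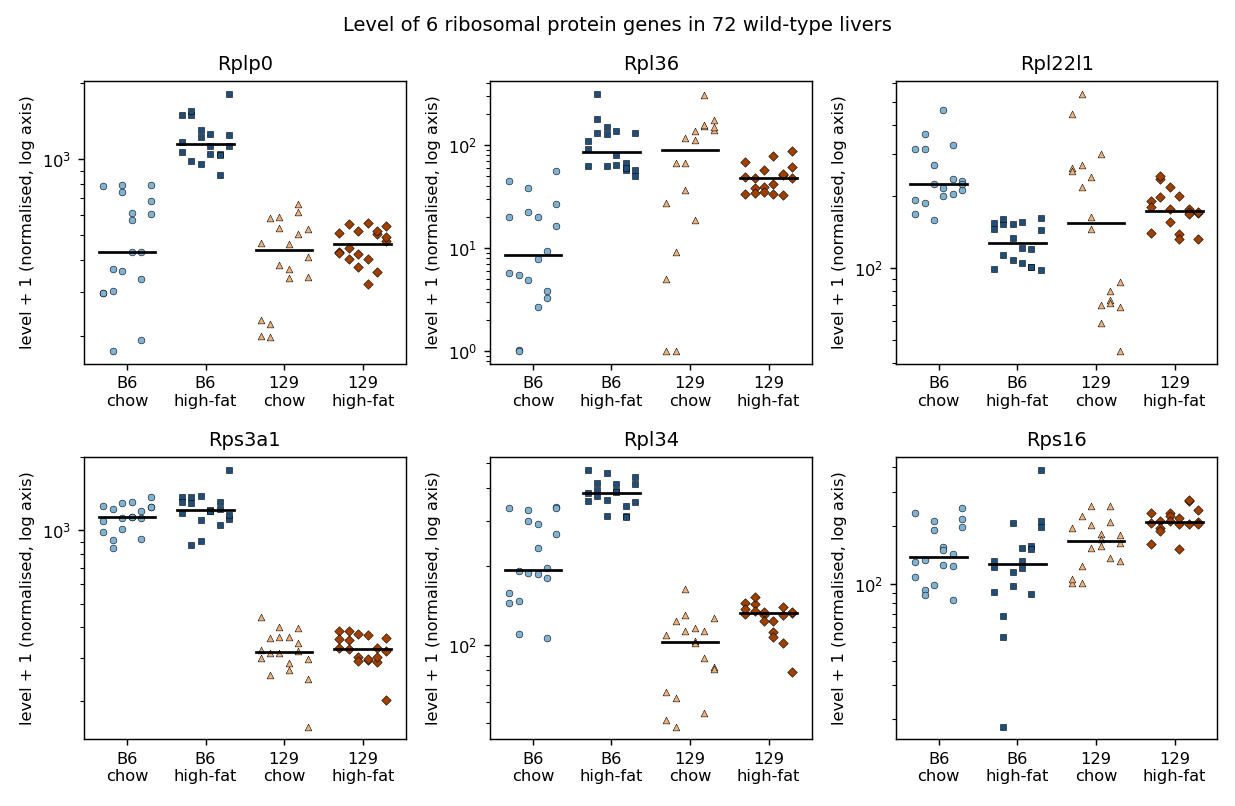
Levels of 6 ribosomal protein genes, as normalised level + 1 on a log axis, in the 18 libraries of each wild-type set (points, ordered by time within a set) with the set's median (line). Rplp0 in B6 on the high-fat diet (865 to 1803) lies above all B6 chow libraries, and Rps3a1 in both 129 sets (156 to 440) lies below all B6 libraries (848 to 1775).

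In B6 mice the high-fat diet went with higher levels of most ribosomal protein mRNAs. Of the 84 members, 58 rose and 8 fell (limma, Benjamini-Hochberg adjusted p under 0.05). The background was high, since 27.5% of all genes rose, 32.7% fell and 60.2% were called in either direction. The members' median change was 0.42 and that of all genes -0.06, and 70 of 84 members were above 0. Among large-subunit genes 32 of 43 rose and 4 fell, with a median of 0.50. Among small-subunit genes 19 of 31 rose and 3 fell, with a median of 0.31. All 3 stalk genes rose, with a median of 1.43, and of the 7 tested paralogues 4 rose and 1 fell.

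Rplp0, the stalk base protein and a common reference gene in PCR (chr5:115559467-115563729, mm10), ran from 174 through a median of 430 to 791 in B6 on chow. On the high-fat diet it ran from 865 through 1145 to 1803, so the lowest high-fat library was above the highest chow library. Its change was 1.43 (SE 0.13, limma adjusted p = 5.89e-13), a 2.70-fold difference. Rpl19, a large-subunit protein, ran from 94.4 through 274 to 563.2 on chow and from 563.4 through 671 to 938 on the high-fat diet. Rps9, a small-subunit protein, ran from 39.0 through 188 to 540 on chow and from 612 through 760 to 1084 on the high-fat diet. Rplp0, Rpl19 and Rps9 were the only members whose B6 diets did not overlap, and 0.735% of all genes had no overlap. The other stalk genes overlapped between diets: Rplp1 rose by 1.19 (SE 0.19, limma adjusted p = 4.66e-07) and Rplp2 by 1.58 (SE 0.29, limma adjusted p = 7.46e-06).

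The largest rise was that of Rpl36, a large-subunit protein with the highest GC content of the tested members (60.8%). It ran from 0 through 7.59 to 54.7 in B6 on chow, with 1 library at 0, and from 49.1 through 84.3 to 312 on the high-fat diet. The groups overlapped only at their edges, and the difference was 3.39 (SE 0.37, limma adjusted p = 6.04e-11). Rpl8, a large-subunit protein beside the peptidyl transferase centre, ran from 2.60 through 168 to 593 on chow and from 565 through 727 to 966 on the high-fat diet, a rise of 2.36 (SE 0.32). Rps15, a small-subunit protein, ran from 0 through 87.1 to 323 and from 226 through 352 to 478, a rise of 2.33 (SE 0.37). Rps9 rose by 2.05 (SE 0.23) and Rpl18, whose window is shown above, by 1.93 (SE 0.23). In Rpl36, Rpl8, Rps15, Rps9 and Rpl18 the chow libraries covered a wider range on the log scale than the high-fat libraries.

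Members that fell were fewer and changed less. Rpl22l1, the paralogue of Rpl22 and the tested member with the lowest GC content (36.7%), ran from 159 through 225 to 459 on chow and from 97.3 through 126 to 161 on the high-fat diet. The groups met at 159 to 161, and it fell by 0.92 on the log2 scale (SE 0.14, limma adjusted p = 3.23e-07). Rpl22 itself rose by 0.30 (SE 0.07, limma adjusted p = 0.000247). Rpl36a fell by 0.39, Rps13 by 0.33, Rps27a, which is made as a fusion with ubiquitin, by 0.33, and Rpl39 by 0.31. Without replicate 1 the members that fell numbered 4. Rps6, the S6 kinase substrate, ran from 297 through 396 to 554 on chow and from 447 through 544 to 745 on the high-fat diet, and rose by 0.42 (SE 0.07, limma adjusted p = 1.88e-06). Rps27 rose by 0.31 (SE 0.10), while its paralogue Rps27l had a change of -0.16 (SE 0.08) that did not pass. Rps27 and Rps27rt share a locus in the deposited annotation and had nearly the same values, so they are not independent.

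The diet change in B6 moved with GC content and with Mir6236. Across the 84 members its Pearson correlation with GC content was 0.66, as a description across genes that share the same libraries. The 28 members of lowest GC content (36.7 to 49.2%) had a median change of 0.11, the middle 28 (49.3 to 53.1%) 0.50 and the highest 28 (53.3 to 60.8%) 1.25. With the GC and length trend of all genes removed, 52 members were higher and 13 lower, against 24.7% and 21.6% of all genes, and the median was 0.36. Of the 66 members called, 52 kept both call and sign and 58 kept the sign. Rps2 (0.38 to -0.25), Rps10 (0.61 to -0.31) and Rpl13 (0.26 to -0.43) passed from called higher to called lower. With Mir6236 as a covariate 1 member was higher and 0 lower (8 at an unadjusted p under 0.05), against 2.05% and 2.96% of all genes, and the median was 0.00. The member still called with the covariate was Rplp0, at 0.81 (SE 0.21, limma adjusted p = 0.0134). Rpl36 was then at 0.86 (limma adjusted p = 0.379), Rpl8 at 0.15, Rps9 at 0.29 and Rpl22l1 at 0.16 (limma adjusted p = 0.712). The Mir6236 range of 129 on the high-fat diet held 8 libraries of B6 on chow and 4 of B6 on the high-fat diet. Among these, in a fit without a term for time, 13 members were higher and 23 lower, against 10.4% and 11.7% of all genes. There Rplp0 was at 0.73, Rpl36 at 1.70, Rpl8 at 0.97, Rps9 at 0.91 and Rpl22l1 at -0.75, each of them called. Diet and Mir6236 overlapped little within B6, since the highest chow library (1171) exceeded only the lowest part of the high-fat range (915 to 91012). How much of the diet change belongs to either cannot be told apart from these libraries.

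**Figure D2:**
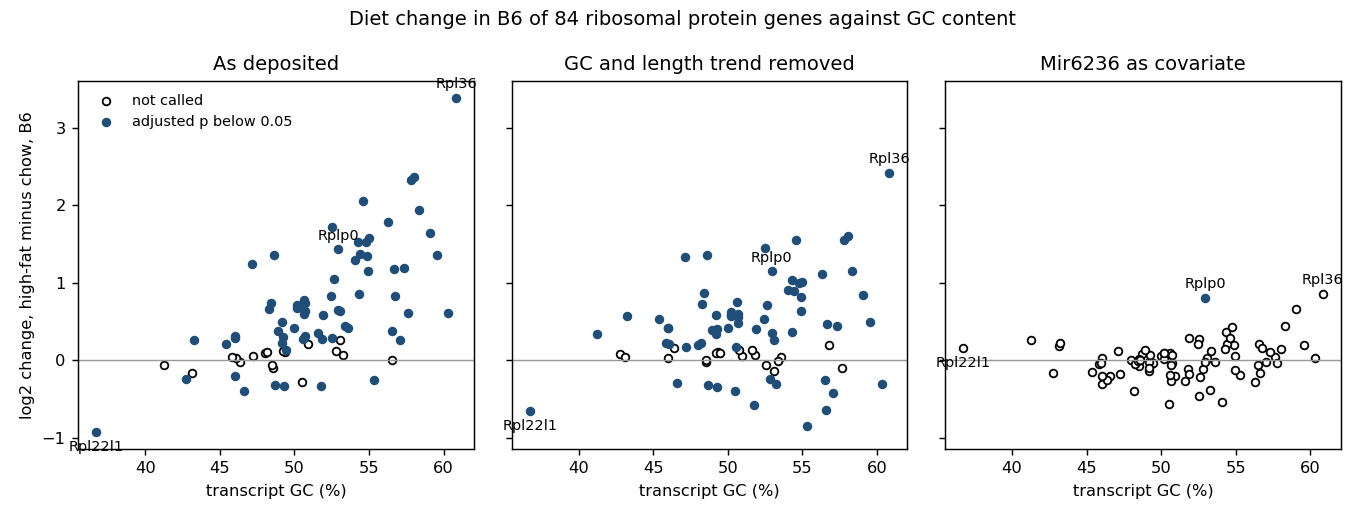
Log2 change on the high-fat diet in B6 (y axis, 84 members) against transcript GC content in percent (x axis), as deposited, after removal of the GC and length trend, and with Mir6236 as a covariate. Filled points have an adjusted p below 0.05: 66 members in the first panel, 65 in the second and 1, Rplp0, in the third.

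The same relation was visible library by library. The members' median deviation from their mean over the 72 libraries ran from -1.0 through -0.21 to 0.30 in B6 on chow and from -0.04 through 0.23 to 0.60 in B6 on the high-fat diet. The 0.60 is that of ZT22 replicate 3, whose neutrophil markers summed to 22159, and the next highest library had 0.48. Within the 18 B6 chow libraries, the 6 with Mir6236 below 100 had deviations from -1.0 to -0.29 and Rpl36 levels from 0 to 4.75. The other 12 had deviations from -0.40 to 0.30 and Rpl36 levels from 2.82 to 54.7. These 12 chow libraries and the 18 high-fat libraries overlapped in deviation. In 129 on chow, 3 libraries were below 100, with deviations from -0.73 to -0.10, and the other 15 ran from -0.47 to 0.36. Above a Mir6236 level of 5000, 12 B6 high-fat libraries ran from -0.04 to 0.60 and 8 chow libraries of 129 from -0.11 to 0.19.

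**Figure D3:**
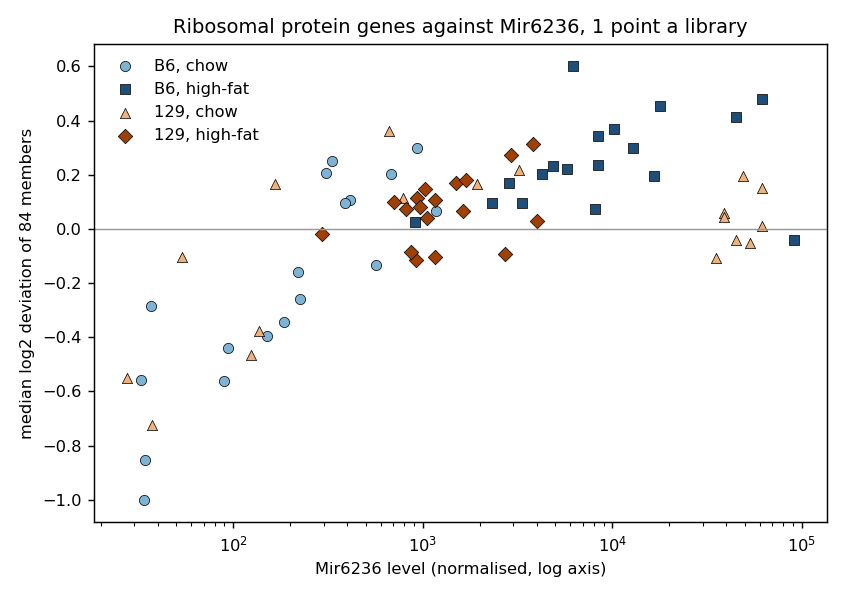
Median log2 deviation of the 84 members (y axis) against the Mir6236 level (x axis, log scale), with 1 point for each of the 72 wild-type libraries. The lowest deviations, down to -1.0, lie in chow libraries with Mir6236 below 100, and B6 high-fat libraries reach 0.60 in ZT22 replicate 3 and 0.48 in the next highest.

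In 129 mice the diet response of the members was small. On the high-fat diet 10 members rose and 2 fell, against 10.9% and 7.45% of all genes, and the median change was 0.13 against 0.04 for all genes. No member had non-overlapping diets, and 0.204% of all genes did. Rps27 rose most, from a range of 383 through 536 to 811 on chow to one of 603 through 805 to 989 (0.48, SE 0.10, limma adjusted p = 0.00042). Rpl34 rose by 0.47 (SE 0.11), Rpl3 by 0.38 (SE 0.09), and Rps16 by 0.38 (SE 0.14, limma adjusted p = 0.0439). Rpl27a fell by 0.26 (SE 0.09, limma adjusted p = 0.0263) and Rps24 by 0.18 (SE 0.06, limma adjusted p = 0.0345). Rplp0 ran from 198 through 436 to 662 on chow and from 321 through 460 to 560 on the high-fat diet, a difference of 0.19 (SE 0.13, limma adjusted p = 0.348). Rps6 differed by 0.06 (SE 0.07, limma adjusted p = 0.644) and Rpl22l1 by 0.28 (SE 0.14, limma adjusted p = 0.181). These counts rested on replicate 2: without replicate 2 of every group, 0 members were higher and 0 lower in limma, with 8 at an unadjusted p under 0.05. The falls were also lost without replicate 1 and without replicate 3, where 0 members were lower and 8 of the 12 calls were kept. The Mir6236 covariate gave 27 higher and 1 lower, against 13.9% and 9.21% of all genes, and with the GC and length trend removed 6 were higher and 6 lower, against 10.9% of all genes lower and 21.2% called. Within the Mir6236 range of 129 on the high-fat diet limma called 0 members higher and 9 lower (27 at an unadjusted p under 0.05). The shares of all genes were 4.81% and 4.23%. That range keeps 4 of the 18 chow libraries, ZT6 replicate 3 and the ZT10 replicates, and the fit had no term for time. As deposited, the median diet change at ZT10 was already -0.17, with 16 of 84 members above 0. Mir6236 range and time of day cannot be told apart here.

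The diet changes of the strains differed in the interaction test. It gave a smaller or more negative change in 129 than in B6 for 42 members and a larger one for 7, against 34.4% of all genes called and 20.1% with a larger change, with a median of -0.30 against 0.10. The largest differences were those of Rpl36 (-3.23, SE 0.52, limma adjusted p = 1.01e-05), Rps15 (-2.21, SE 0.52), Rplp2 (-2.01, SE 0.41), Rpl8 (-1.93, SE 0.45) and Rps4l (-1.81, SE 0.39). Rplp0 differed by -1.24 (SE 0.19, limma adjusted p = 4.52e-06), and Rpl22l1 in the other direction by 1.20 (SE 0.20, limma adjusted p = 2.14e-05). With the GC and length trend removed 39 members were lower and 8 higher, against 17% of all genes called and 6.87% higher. Under the Mir6236 covariate limma called 0 members in either direction, with 11 at an unadjusted p under 0.05, and 0.124% of all genes were called. Without replicate 2 the members with a lower change in 129 numbered 21 and those with a higher change 3, and without replicate 3 the latter also numbered 3. The interaction uses the same libraries as the diet comparisons and is no separate support for them.

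On chow the strains differed in both directions. In 129, 38 members were higher than in B6 and 15 lower, against 25.4% and 27.5% of all genes (52.9% called), with a median of 0.19. The chow libraries of B6 are shared with the diet comparison in that strain. The 28 members of highest GC content had a median of 0.73 and the 28 of lowest -0.03. Among the members most above B6 in 129 were Rpl36 by 2.23 (SE 0.37, limma adjusted p = 1.63e-06), Rps15 by 1.81 (SE 0.37), Rpl8 by 1.53 (SE 0.32) and Rpl7a by 1.32 (SE 0.40, limma adjusted p = 0.00455). Rpl36 ran from 0 through 87.8 to 307 in 129 on chow, a range that holds the whole range of B6 on chow. With Mir6236 as a covariate 0 members were higher and 11 lower (21 at an unadjusted p under 0.05), against 4.97% and 7.84% of all genes. With the GC and length trend removed 40 were higher and 13 lower, against 22.4% and 17.1%. Without replicate 2 the members higher in 129 numbered 23. Of 12 Kupffer cell markers 9 were lower in 129 on chow, and 9 on the high-fat diet, and their part in the members' differences was not tested.

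On the high-fat diet the strain comparison, which shares no library with that on chow, gave mostly lower levels in 129. There 21 members were lower and 4 higher, against 13.3% and 19% of all genes (32.3% called), with a median of -0.16 against 0.05. The 4 higher were Rps16 (0.84, SE 0.14, limma adjusted p = 1.43e-06), Rpl22l1 (0.46, SE 0.14), Rps27a (0.18, SE 0.07) and Rps19bp1 (0.40, SE 0.15), whose product binds Rps19 and is not itself a ribosomal protein. Rplp0 was lower by 1.39 (limma adjusted p = 7.74e-13), with all 18 libraries of 129 below all 18 of B6, and was still at -1.07 (SE 0.15) with Mir6236 as a covariate. Rplp1 was lower by 1.03 (SE 0.19, limma adjusted p = 1.40e-05) and at -0.49 (limma adjusted p = 0.0585) with the covariate. Over all members the covariate gave 8 higher and 10 lower, against 17% and 12.8% of all genes, and the GC and length trend 7 and 24, against 17.8% and 16.9%. Without replicate 2 the lower members numbered 13 and the higher 2, and without replicate 1 the higher also numbered 2.

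A small group was lower in 129 on both diets. It held 7 members, Rps3a1, Rpl29, Rpl34, Rps13, Rpl30, Rps2 and Rps15a, and no member was higher in 129 on both. Rps3a1, a small-subunit protein (chr3:86137940-86142668, mm10), ran from 848 through 1132 to 1369 in B6 on chow and from 869 through 1211 to 1775 in B6 on the high-fat diet. In 129 it ran from 156 through 317 to 440 on chow and from 201 through 326 to 385 on the high-fat diet. All 36 libraries of 129 were below all 36 of B6. The difference was -1.85 on chow (SE 0.08, limma adjusted p = 5.59e-27) and -1.90 on the high-fat diet (SE 0.08, limma adjusted p = 1.46e-27), and -1.92 on chow with Mir6236 as a covariate.

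The other members of this group showed the same order with partly overlapping libraries. Rpl29, a large-subunit protein (chr9:106429411-106431568), ran from 133 through 156 to 224 in B6 and from 21.5 through 32.3 to 51.0 in 129 on the high-fat diet, a difference of -2.30 (SE 0.15, limma adjusted p = 3.85e-19). On chow it was at -1.26 (SE 0.15), where the ranges overlapped. Rpl34, a large-subunit protein (chr3:130726827-130730337), ran from 308 through 384 to 471 in B6 and from 77.6 through 131 to 151 in 129 on the high-fat diet, at -1.60 (SE 0.11), and was at -1.21 (SE 0.11) on chow. Rps13, a small-subunit protein (chr7:116331507-116334190), ran from 310 through 409 to 583 in B6 and from 124 through 206 to 271 in 129 on chow, at -1.01 (SE 0.08). On the high-fat diet it was at -0.63 with overlapping ranges. Libraries did not overlap for Rps3a1 and Rps13 on chow, against 1.23% of all genes, and for Rpl29, Rpl34, Rplp0, Rps2 and Rps3a1 on the high-fat diet, against 1.83%. Rps3a1, Rpl29, Rpl34, Rps13 and Rpl30 were lower in 129 at 6 of 6 times on both diets. Under the Mir6236 covariate 9 members were called on both diets with the same sign: Rpl11, Rpl29, Rpl30, Rpl34, Rpl39, Rplp0, Rps13, Rps2 and Rps3a1. With the GC and length trend removed 9 members were called on both diets with the same sign. Rpl11, Rpl29, Rpl30, Rpl34, Rplp0, Rps13, Rps2 and Rps3a1 were lower in 129, and Rps27rt was higher (0.26 on chow). Rps27, which shares its locus, was then at 0.02 on chow (limma adjusted p = 0.872). As deposited the 2 were at 0.04 (Rps27) and 0.05 (Rps27rt). The trend was removed with a GC content of 50.7% for Rps27 and 46.0% for Rps27rt, so the call of Rps27rt is not separate from that choice. Rps15a was not among the 9. Reads of both strains were assigned to mm10, an assembly of C57BL/6J, and how reads shared with pseudogene copies were assigned is not given in the sources used here. The part of read assignment in these differences was not tested.

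**Figure D4:**
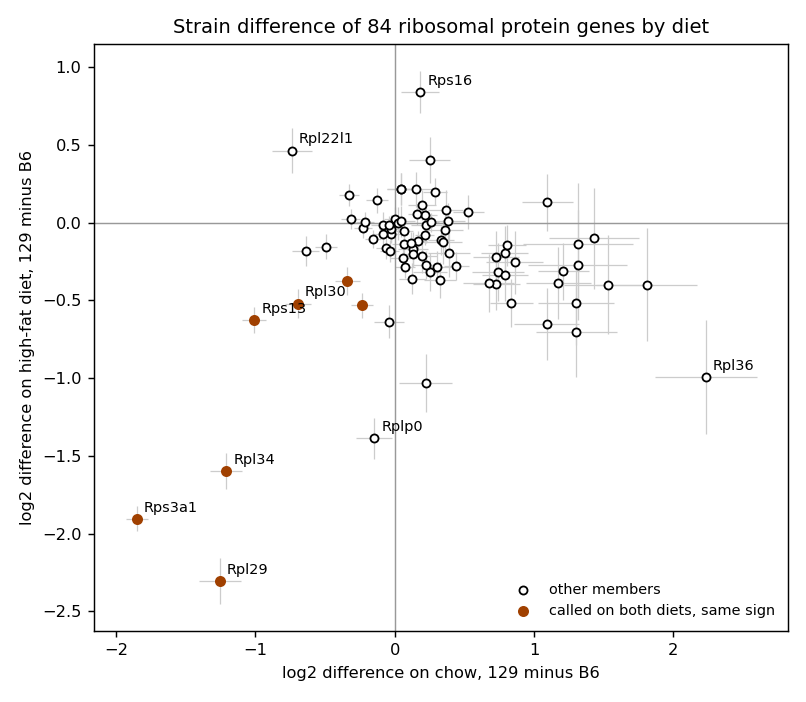
Log2 difference of 129 minus B6 on chow (x axis) and on the high-fat diet (y axis) for the 84 members, with SE bars. The 7 filled members were called with the same sign on both diets, and Rps3a1 lies at -1.85 and -1.90.

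Time of day was tested by a 24 h cosine in each set. In B6 on chow limma called 0 of 84 members (1 at an unadjusted p under 0.05), against 6.16% of all genes. In B6 on the high-fat diet it called 1, against 4.08%, and in 129 on the high-fat diet 0 (2 at an unadjusted p under 0.05), against 7.04%. The member called in B6 was Rps16, a small-subunit protein, with an amplitude of 0.78 (SE 0.17, limma adjusted p = 0.00711) and a peak at ZT19.0. Its replicates were 17.2, 52.1 and 67.0 at ZT6 and 195, 211 and 389 at ZT22. The same ZT6 libraries held Mir6236 at 45004 to 91012 and the ZT22 libraries at 2846 to 6202, and with Mir6236 as a covariate the amplitude was 0.80 (limma adjusted p = 0.00631), and with the GC and length trend removed 0.77 (limma adjusted p = 0.00517). The call was lost without any 1 of the replicate numbers and without the 3 libraries named above for low values.

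In 129 on chow 34 of 84 members were called rhythmic, a share below the 47.8% of all genes. Rpl36 had the largest amplitude, 2.43 (SE 0.44) with a peak at ZT16.9, followed by Rplp1 at 1.27 (peak ZT18.4) and Rps9 at 1.25 (peak ZT16.7). Mean Rpl36 levels from ZT2 to ZT22 were 10.05, 24.6, 72.5, 87.6, 204 and 153, and those of Mir6236 in the same libraries 106, 279, 1976, 24753, 49822 and 53230. Rpl22l1 had the opposite phase, with means of 319, 342, 182, 142, 74.1 and 65.9 and a peak at ZT5.9. With Mir6236 as a covariate 11 members were called, against 14.8% of all genes, with the GC and length trend removed 39, against 35.7%, and without replicate 2 13. The rhythm changed with diet in 129 for 2 members, Rpl35 (1.04, limma adjusted p = 0.0401) and Rpl22l1 (1.01, limma adjusted p = 0.0246), against 1.26% of all genes. Without replicate 1 the count was 1, and without replicate 2 or replicate 3 limma called 0 (6 and 20 members at an unadjusted p under 0.05). Under the Mir6236 covariate both calls were lost, with 0 members called by limma (13 at an unadjusted p under 0.05) against 0.0975% of all genes, and with the GC and length trend removed 2 were called, against 1.24%. In B6 limma called a change for 0 (1 at an unadjusted p under 0.05), against 0.0532%.

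The diet change was also computed at each time. In B6 the members' median was positive at every time: 0.47, 0.78, 0.26, 0.49, 0.58 and 0.12 from ZT2 to ZT22. Rplp0 was at 1.58, 2.28, 0.95, 1.10, 1.69 and 0.99. In 129 the median was 0.43 and 0.44 at ZT2 and ZT6, where 66 and 72 of 84 members were above 0. It was -0.17, -0.02, -0.10 and 0.07 at the later times, where 16, 38, 31 and 53 were. Rpl36 in 129 passed from 3.22 and 2.23 at ZT2 and ZT6 to -2.13 at ZT18. These values by time are as deposited, with no test.

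**Figure D5:**
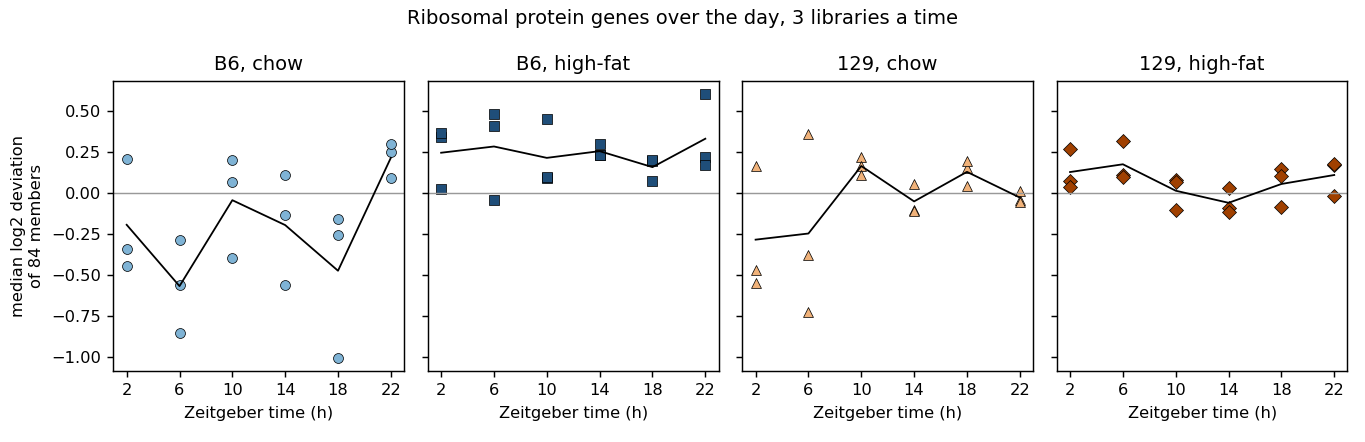
Median log2 deviation of the 84 members (y axis) by Zeitgeber time in hours (x axis) in the 4 wild-type sets, with 1 point for each of 3 libraries a time and a line through the means. Chow libraries spread from -1.0 to 0.36 and high-fat libraries from -0.12 to 0.60.

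In the Errg-Cre and Esrrg LKO sets only levels within a table and the order of members within a library were described. Esrrg ran from 8.23 through 25.9 to 62.0 in Errg-Cre and from 7.64 through 16.4 to 39.4 in Esrrg LKO. The deleted part of the gene is not given, so a value over the whole transcript does not check the labels. Rplp0 had 872 ± 183 (SD, n = 18) in Errg-Cre and 1176 ± 173 (SD, n = 18) in Esrrg LKO. Among the members of its library it ranked 28th to 48th in Errg-Cre and 2nd or 3rd in Esrrg LKO. In the wild-type table it ranked 5th to 17th in B6 and 30th to 54th in 129 on the high-fat diet.

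Rps3a1 had 623 ± 74.8 (SD, n = 18) in Errg-Cre, with ranks 47 to 62, and 462 ± 41.7 (SD, n = 18) in Esrrg LKO, with ranks 31 to 39. Its ranks were 6 to 15 in B6 and 46 to 74 in 129 on the high-fat diet, so the Errg-Cre ranks lay inside the range of 129 and those of Esrrg LKO outside both. Rpl34 ranked 77 to 80 in Errg-Cre and 46 to 58 in Esrrg LKO. Rpl22l1 was at 173 ± 40.7 (SD, n = 18) and 51.9 ± 11.0 (SD, n = 18), with median ranks of 80 and 82. Rpl37rt, a retrotransposed copy, passed the mean of 10 in the Esrrg LKO table alone, where 85 members were tested. Strain label, genotype and table moved together in these sets and cannot be told apart.

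Rhythms were also tested within these sets. In Errg-Cre 7 of 84 members were called, against 17.9% of all genes: Rpl36 (amplitude 0.65, peak ZT10.7), Rps16 (0.44, peak ZT12.1), Rplp2 (0.44, peak ZT10.4), Rps26, Rpl34, Rpl11 and Rpl7l1. With Mir6236 as a covariate 1 was called, against 7.82%, and with the GC and length trend removed 2, against 12.2%. Without replicate 2, and likewise without replicate 3, limma called 0 (5 and 4 at an unadjusted p under 0.05). In Esrrg LKO 3 of 85 were called, against 6.09%: Rpl35 (amplitude 0.23, peak ZT14.8), Rpl36 (0.21, peak ZT15.6) and Rpl7a (0.14, peak ZT16.5). With the GC and length trend removed limma called 0 (17 at an unadjusted p under 0.05), against 6.44%, and under the Mir6236 covariate 4, against 5.24%. Without any 1 replicate number limma called 0 there, with 8 to 21 at an unadjusted p under 0.05. Mir6236 ran from 216 to 19959 in Errg-Cre and from 3959 to 23388 in Esrrg LKO.

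Other genes of the translation machinery were read on the high-fat diet in B6 against the same background of 27.5% of all genes higher and 32.7% lower. Fau (1.41) and Rack1 (0.93), which encode ribosomal proteins under symbols that the rule does not take, rose. Of a list of 27 genes with TOP mRNAs, mostly but not only translation factors, 9 rose and 8 fell, with a median of -0.01. Among them were Eef2, the translocation factor (1.44), Eef1d (1.05) and Eif2s3x (-0.42). Of 47 ribosome biogenesis genes 11 rose and 20 fell, with a median of -0.16. There Ncl, the nucleolar protein nucleolin, fell by 1.38 (SE 0.10) and was still called with Mir6236 as a covariate (-1.19), while Eif6, which keeps the subunits apart, rose by 1.13. Of 23 genes of mTOR signalling and TOP control 8 rose and 8 fell, with Myc at -1.32 and Rps6ka1, an S6 kinase family gene, at 1.18. In 129 the same 3 lists had 2 rises and 0 falls, 3 rises and 2 falls, and 0 rises and 4 falls, against 10.9% and 7.45% of all genes.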

How the data were processed

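Total RNA from male liver was sequenced (TRIzol and RNeasy extraction, TruSeq libraries, per the labels' protocols, which also mention isolated endothelial and Kupffer cells, while every sample is labelled Liver). The deposited values are the authors' quantile-normalised signal per transcript, and STAR, HOMER and the mm10 build are named in the submitters' processing notes. Their settings and the assignment of shared reads are not given in the sources used here. Quantile normalisation gives all libraries of a table the same values, so depth and counting error are unknown. A further 18 columns of the Errg-Cre table matched no label and were not used.

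For each symbol the transcript with the highest mean was kept, then genes with a mean of at least 10 over the table, and log2(level + 1) was fitted. Contrasts of diet, strain and their interaction came from 1 limma fit (limma 3.58.1, R 4.3.3) over the 24 wild-type groups, averaged over times, and rhythms from a 24 h cosine in each set. P-values were adjusted by Benjamini-Hochberg over all genes, with a threshold of 0.05. The GC and length trend was fitted over all genes within a library. Named members were the 5 largest rises and falls past the threshold in each contrast, the 3 largest amplitudes in each rhythm test, Rplp0, Rps6, Rpl22 with Rpl22l1, Rps27 with Rps27l, and members below the filter. Companion genes were up to 2 for each list. Some items that the rule names are not reported here. Others named (such as Rpl19, Rplp1 and the members called on both diets) were chosen after their values were seen. Members, lists and tests were chosen with earlier results of these data known. The fits were tested on simulated data. Figures and summaries used Python 3.11.15, pandas 2.3.3 and matplotlib 3.10.9.

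Replicate numbers did not pair the samples: deviations of same-numbered samples had a mean correlation of 0.0035 over 828 pairs, from -0.67 to 0.70, and those of other numbers -0.0019 over 1656 pairs. No 2 libraries were identical, and the highest correlation between any was 0.989. Alternatives were another pseudocount (5), no filter on low values, median centring, the replicate block, each replicate number left out, and the GC, length and Mir6236 fits. Added after the data were seen were GC, length and Mir6236 together, the libraries within the Mir6236 range of 129 on the high-fat diet, and the omission of B6 high-fat ZT22 replicate 3, whose neutrophil markers summed to 22159 against at most 28.6 in B6 on chow. The fit within that Mir6236 range compared the means of the wild-type sets without a term for time.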

Additional observations from a re-analysis of the deposited data

Results flagged for a closer look

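The diet change differed between the strains by the interaction test of limma (adjusted p under 0.05) for 49 of the 84 members, and the values of those named are the log2 change in 129 minus that in B6. It was negative for Rpl36 (-3.23), Rps15 (-2.21), Rplp2 (-2.01), Rpl8 (-1.93), Rps4l (-1.81, at a mean level of only 13.8), Rplp0 (-1.24) and Rps6 (-0.36). It was positive for Rpl22l1 (1.20), Rps16 (0.66), Rps27a (0.50), Rpl39 (0.45), Rps13 (0.38) and Rps27l (0.34). With Mir6236 as a covariate limma called 0 of the 84 members, with 11 at an unadjusted p under 0.05, and the part of Mir6236 in these differences cannot be told apart from that of diet and strain.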

How the results depend on the processing

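Counts of members called, higher before lower, are given with the value of the fits above first, and ranges without 1 replicate number include the fit without B6 high-fat ZT22 replicate 3. Diet in B6 had 58 and 8: with Mir6236 as a covariate 1 and 0, with GC, length and Mir6236 1 and 0, in the Mir6236 range of 129 on the high-fat diet 13 and 23, with the GC and length trend removed 13 lower, and without 1 replicate number 48 to 60 and 4 to 9. Diet in 129 had 10 and 2: without a filter 5 and 0, with GC and length 6 and 6, with Mir6236 27 and 1, with all 3 17 and 6, in the Mir6236 range 0 and 9, and without 1 replicate number 0 to 12 and 0 to 2 (0 without each of the 3 replicate numbers). Strain on chow had 38 and 15: with Mir6236 0 higher, with all 3 1 higher, in the range 22 and 6, and without 1 replicate number 23 to 42 and 13 to 15. Strain on the high-fat diet had 4 and 21: without a filter 2 higher, with GC and length 7 higher, with Mir6236 8 and 10, with all 3 13 lower, in the range 8 and 12, and without 1 replicate number 2 to 4 and 13 to 22. The interaction had 7 and 42: with Mir6236, and with all 3, 0 and 0, in the range 3 and 18, and without 1 replicate number 3 to 10 and 21 to 45. Rhythm in B6 on the high-fat diet had 1: without the 3 libraries of low values 0, and without 1 replicate number 0 to 1. Rhythm in 129 on chow had 34: with Mir6236 11, with all 3 5, and without 1 replicate number 13 to 37. The change of rhythm in 129 had 2: without a filter 1, with Mir6236 and with all 3 0, without the 3 libraries 4, and without 1 replicate number 0 to 3. Rhythm in Errg-Cre had 7: without a filter 1, with GC and length 2, with Mir6236 1, with all 3 0, and without 1 replicate number 0 to 9. Rhythm in Esrrg LKO had 3: with GC and length 0, and without 1 replicate number 0 to 0. The replicate block, which the check of pairing did not call for, left 58 and 8 for diet in B6 and gave 3 for Errg-Cre. The block with GC and length gave 13 lower for diet in B6, 6 and 6 for diet in 129, 7 higher for strain on the high-fat diet, 1 for the change of rhythm in 129, 1 for Errg-Cre and 0 for Esrrg LKO. The limma count of 0 members with Mir6236 as a covariate came with 11 members at an unadjusted p under 0.05 for the interaction, and the cause of these moves was not tested.

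Some named members changed sign. For diet in B6 with Mir6236: Rpl22l1 0.16, Rpl39 0.086, Rps15 -0.038, Rps27 -0.039 and Rps27l 0.19, with GC and length Rps27l 0.047 (0.047 also with the block), with all 3 Rpl22l1 0.027, Rpl39 0.15, Rps15 -0.070, Rps27a 0.0047 and Rps27l 0.20, and in the range Rpl22 -0.13, Rps27 -0.33 and Rps6 -0.080. For diet in 129 in the range: Rpl22 -0.026, Rpl22l1 -0.10, Rpl34 -0.061, Rplp0 -0.18 and Rps6 -0.11, and for Rps6 also -0.056 with GC and length (-0.056 with the block), -0.00050 with all 3 and -0.018 to 0.12 without 1 replicate number. For strain on chow: Rpl22 0.024 with GC and length (0.024 with the block), Rpl22l1 0.21 with all 3, Rpl7a -0.15 with Mir6236 and -0.072 with all 3, Rps27 -0.19 with Mir6236, -0.038 to 0.12 without 1 replicate number, -0.055 without the 3 libraries of low values and -0.059 with all 3, and Rps6 -0.17 with Mir6236, -0.0027 to 0.12 without 1 replicate number, -0.080 with all 3 and -0.020 in the range. For strain on the high-fat diet: Rpl22 0.054 and Rps27l 0.087 in the range, Rpl22l1 -0.083 with Mir6236 and Rps27a -0.011 with all 3. For the interaction with Mir6236: Rpl22 0.16, Rpl22l1 -0.072, Rpl39 -0.015, Rpl8 0.66, Rps15 0.57, Rps27l -0.069 and Rps6 0.071, with all 3 Rpl22 0.0029, Rpl39 -0.21, Rpl8 0.47, Rps13 -0.088, Rps15 0.35, Rps27a -0.0086 and Rps27l -0.12, and Rpl22 0.0081 without replicate 3 and 0.11 in the range. The fits with all 3, in the range and without B6 high-fat ZT22 replicate 3 were chosen after seeing the data. The normalisation hides depth, the 3 tables cannot be compared in level, and diet and Mir6236 overlapped in few B6 libraries.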
